A study of Polistes dominula with 96 samples.

Results

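In the brains of 96 females of the European paper wasp Polistes dominula, 125 of 10794 genes were high in queens and, in wasps from nests that had lost their queen, lay at least 0.4 of the way from the level of control workers to that of queens. The wasps comprised 26 queens, 12 control workers and 58 queen removal individuals, and of the last 24 were taken 3 days and 34 were taken 12 days after their nest lost its queen. The queens were overwintered foundresses with no age recorded, and the control workers came from nests with a sham removal. By nest number the 26 queens were mixed: 12 came from nests that also gave removal individuals, 10 from nests that also gave control workers and 4 from neither, and the labels do not tell them apart. Control workers were 1 to 23 days old (mean 11.4 ± 7.25 SD), and queen removal individuals were 3 to 33 days old (mean 17.2 ± 7.45 SD), with means of 15.5 ± 9.15 at day 3 and 18.4 ± 5.8 at day 12. The labels list no genotype and no drug, subordinate foundresses had been taken off every nest, and replacement queens had no males to mate with.

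The members were chosen by their levels, in CPM (read counts scaled to a common library size), with TMM, a factor per library that evens out differences in RNA composition. On the scale log2(median CPM + 0.5), the queen median had to exceed the control worker median by a factor of 1.5 or more and to reach 2 CPM. The median of the 58 queen removal individuals minus that of workers had to be at least 0.4 of the queen minus worker difference, and that ratio is called the share below. Of 390 queen-high genes, 197 passed the share. Among those, 71 were left out because they followed the muscle gene LOC107074300 over all libraries (Spearman's rho of 0.7 or more), and Cyp4g15 was left out by name, with Kr-h1, Vgn, bond and Jhbp16 barred by the same rule. The queen, worker and removal levels therefore chose the members and are given as a description, with no test.

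Caste in Polistes is flexible, since queens and workers are alike in form and a worker can take over a nest when its queen is lost. Nestmates settle rank by aggression and read one another through long-chain hydrocarbons on the cuticle, which are built from fatty acids by elongases, desaturases and fatty acyl-CoA reductases and finished by a CYP4G enzyme, in insects mainly in oenocytes and fat body. Small soluble chemosensory proteins carry hydrophobic ligands of this kind, and juvenile hormone and ecdysteroids link the brain to the ovary.

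Total counts were between 7933671 and 18124755 per library, with a lower median in queens (10437136) than in the other groups (13212068 to 13377402), and TMM factors went down to 0.791 in 1 day 12 wasp. The libraries carried neuronal transcripts at even levels, with group means of 7.23 to 7.48 on the log2(CPM + 0.5) scale over 8 markers. Group means were about level for 5 glia markers (7.6 to 7.81) and 3 hemocyte markers (7.40 to 7.58). The 8 photoreceptor markers averaged 6.89 in control workers, 7.01 at day 3, 6.55 at day 12 and 5.84 in queens. Single wasps varied widely in these, from 2.44 to 9.66. Other lists differed more clearly between the groups. The 10 muscle markers, of which 7 were themselves queen-high and none had a median of 0 in all groups, averaged 9.58 in control workers (7.40 to 10.44), 10.45 at day 3 (8.47 to 11.77), 10.45 at day 12 (8.68 to 12.17) and 10.51 in queens (8.46 to 12.10). The 11 genes called head gland markers here were picked by product name: venom proteins, glucose dehydrogenases, a lysosomal alpha-glucosidase-like gene and yellow-g. The name is a label for the list, and the tissue that expresses these genes was not tested. With 1 of them at a median of 0 in all groups, they averaged 2.59 in control workers (2.18 to 3.19) and 2.50 in queens (1.85 to 3.12). Their averages were 2.88 at day 3 (2.22 to 4.40) and 2.88 at day 12 (2.13 to 4.94). The part of muscle or of the head gland list in the levels below was not tested beyond the muscle filter and the left-out wasps named below. In whole brains a change in the number of cells of a type cannot be told apart from a change in RNA per cell. The brains were taken out of heads, and RNA of other head tissue carried over with them cannot be told apart from that of the brain. This holds for all members below, and the part of such tissue was not tested. The 5 fat body markers averaged 5.84 in control workers, 5.71 at day 3, 4.98 at day 12 and 4.75 in queens, and went both ways: Hex70a had medians of 127.5 CPM in control workers and 3.02 CPM in queens, and Vgn, for vitellogenin, 1690.0 CPM and 3807 CPM.

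The 125 genes were mostly unnamed. A gene symbol was found for 29 and a product name alone for 26, and 70 had neither. In RefSeq 111 were protein coding, 5 were long non-coding RNAs, 1 was a pseudogene and 8 had no entry. Median levels in queens ran from 2.06 to 886 CPM, with 61 members under 10 CPM. The queen to worker ratio of medians was 1.88 at its middle, 1.5 at its lowest and 20.5 at its highest, and 45 members were at 2-fold or more. The share ran from 0.403 to 1.99 with a median of 0.645, and for 24 members the removal median was at or above that of queens. In no member did all queens lie above all control workers, but this count was not taken over all genes and so is no trait of the members. By nest, the median member was above the worker median in 15 of 18 nests, and 11 members were above it in all 18. The rule favours such nest counts, here and for single genes below, since it asks for a removal median above that of workers. They were not taken over all genes, and some nests gave only a single wasp.

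Averaged over the 125 members, log2(CPM + 0.5) relative to the worker median was 0.08 ± 0.35 (SD, n = 12) in control workers, 0.56 ± 0.36 (n = 24) at day 3, 0.80 ± 0.28 (n = 34) at day 12 and 0.92 ± 0.40 (n = 26) in queens. The wasp-level means overlapped between groups, from -0.58 to 0.49 in control workers and from -0.15 to 1.5 in removal individuals. Of the 58 removal individuals 43 were above the highest control worker, as were 21 of 26 queens. The median of the wasp-level means in a nest was above 0 in all 18 nests. Single wasps differed in how many members were above every control worker, from 3 to 59 in removal individuals (median 21) and from 12 to 78 in queens (median 37.5). The 4 removal individuals with the most members above were also high in head gland markers: day 12 replicate 8 (59 members, marker mean 4.94), day 12 replicate 30 (57, 4.75), day 12 replicate 1 (55, 3.99) and day 3 replicate 8 (55, 3.94). Day 3 replicate 13 had 43 members and a marker mean of 4.40, while day 3 replicate 18, at 3.98, had 3 members. No other removal individual was above 3.45, and without these 6 wasps 123 genes passed the rule, of which 120 were members. Queens of nests with removal individuals and the other 14 queens had member means of 0.864 ± 0.432 (SD) and 0.964 ± 0.383, and with those 14 as the only queens 144 genes passed, of which 95 were members. Because these values chose the members, the gap between workers and the other groups was built in. How evenly the gap was shared was partly fixed too, since a removal median above that of workers puts many wasps above it. In every member 30 or more of the 58 removal individuals were above the worker median. The plot of the members per wasp shows the spread.

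**Figure D1:**
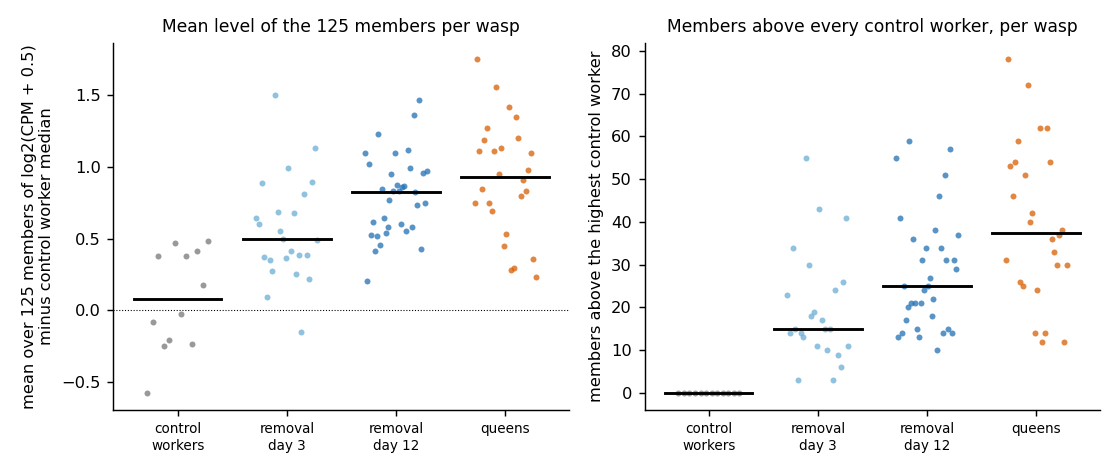
Left, the mean over the 125 members of log2(CPM + 0.5) minus the control worker median, 1 point per wasp; right, the number of members above the highest control worker in that wasp. Black bars are group medians. Day 12 wasps lie between 0.21 and 1.47 on the left axis, and day 3 wasps between -0.15 and 1.5.

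Ages differed between removal individuals and control workers, so the removal minus worker difference was also taken from a linear fit of log2(CPM + 0.5) on group, without and with age. This fit compares means of log2 values, not the medians of the rule. The difference was above 0 in 123 of 125 members without age and in 121 with age, and the share on means was 0.4 or more in 105 without age and in 94 with age, 91 of them in both. The median difference over the members was 0.51 without age and 0.52 with age, and in 46 of 125 members it was larger with age. Of the members below 0 with age, Hn went from 0.19 to -0.10 and LOC107066938 from 0.10 to -0.09. LOC107063680 and LOC107069904 were below 0 without age too (-0.06 and -0.19) and lower with it (-0.53 and -0.40). The removal minus worker difference in these same wasps chose the members, so its sign and share here were largely given by the choice. The fit is a description, was added after the data were seen and was not set against all genes. What part of the difference age accounts for was not tested.

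The named member with the highest ratio among those above 100 CPM in queens encoded ejaculatory bulb-specific protein 3 (LOC107068616), a soluble chemosensory protein named for the tissue in which it was first found in Drosophila. Its levels (lowest, median and highest, in this order here and below) were 3.9, 29.3 and 99.1 CPM in control workers, 17.3, 62 and 189 at day 3, 30.2, 103 and 818 at day 12 and 3.85, 219.8 and 1453 in queens. The groups overlapped at the low end, with 1 queen below the lowest worker, while 18 of 26 queens and 21 of 58 removal individuals were above every control worker. The second gene of that name, ejaculatory bulb-specific protein 3-like (LOC107068500), had 2.4, 9.69 and 29.4 CPM in control workers, 3.25, 21.2 and 171 at day 3, 6.67, 27.6 and 101 at day 12 and 3.2, 35 and 253 in queens. Both genes were above the worker median in all 18 removal nests, a count that the rule favours. Of the 23 genes in the chemosensory list, which also held odorant and gustatory receptors and odorant-binding proteins, these 2 were the queen-high ones.

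The lipid genes of the set, grouped by hand after the members were known, were 8: an elongase, a pair of fatty acyl-CoA reductases, a fatty-acid amide hydrolase, a lipase, and 3 likely lipid carriers or receptors. The elongase (LOC107072906, elongation of very long chain fatty acids protein AAEL008004-like), a family that lengthens fatty acids by adding carbon units, had 1.27, 8.45 and 20.0 CPM in control workers, 3.16, 11.1 and 167 at day 3, 2.63, 24 and 229 at day 12 and 1.69, 36.3 and 189 in queens. Median levels at day 3 stayed close to those of workers, and at day 12 they were nearer to those of queens, with 26 of 58 removal individuals above every control worker. A fatty acyl-CoA reductase, putative fatty acyl-CoA reductase CG5065 (LOC107070407), of the family that turns fatty acyl-CoA into alcohols and aldehydes, had 0.749, 16.1 and 42.5 CPM in control workers, 6.02, 22 and 367 at day 3, 4.35, 36.4 and 282 at day 12 and 3.38, 50.6 and 357 in queens. In both genes the highest removal individuals stood well apart from the others, with values in the range of the highest queens.

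The second reductase, fatty acyl-CoA reductase 1-like (LOC107065778), had 0, 4.28 and 39.8 CPM in control workers, 1.14, 4.33 and 22.1 at day 3, 2.7, 17 and 141 at day 12 and 0.564, 9.98 and 272 in queens. Its median at day 3 was that of workers and its median at day 12 was above that of queens. Fatty-acid amide hydrolase 2-B-like (LOC107071643), which in vertebrates breaks down fatty-acid amides, followed the same order with 0.524, 49.1 and 144 CPM in control workers, 13, 63.4 and 351 at day 3, 25.7, 164 and 491 at day 12 and 1.5, 114 and 635 in queens. Lipase member H-like (LOC107069599) had medians of 17.9 CPM in control workers, 18.5 at day 3, 32.2 at day 12 and 30.6 in queens, so that its share was 0.0574 at day 3 and 1.1 at day 12. Npc2b, of a family of sterol-binding secreted proteins, and emp, a CD36-like scavenger receptor in Drosophila, had shares of 1.32 and 2.67 at day 12, past the queen median. The share of retinaldehyde-binding protein 1-like (LOC107066073) was 0.18 at day 3 and 0.704 at day 12. In all 8 of these genes the share was larger at day 12 than at day 3, with medians of 0.228 and 1.21.

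Beyond these members, the hydrocarbon synthesis list of 27 elongases, desaturases, fatty acyl-CoA reductases and CYP4G genes held 8 that were queen-high and 3 that were members. Its mean level on the log2(CPM + 0.5) scale was 1.88 ± 0.35 in control workers (SD, n = 12), 2.06 ± 0.35 at day 3 (n = 24), 2.35 ± 0.39 at day 12 (n = 34) and 2.50 ± 0.56 in queens (n = 26). That mean includes the members and genes that the rule looked at, so its order is partly given by the choice.

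**Figure D2:**
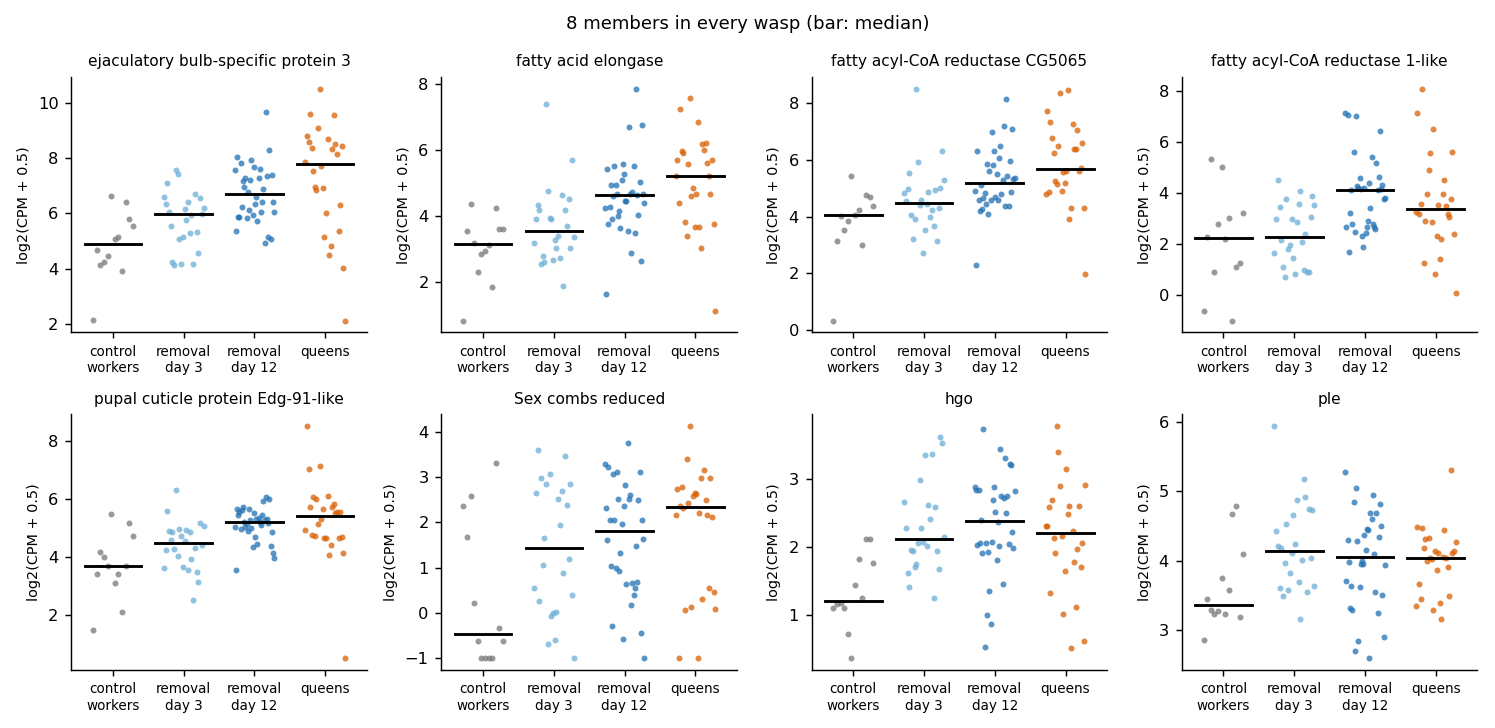
Level of 8 members in every wasp, on the log2(CPM + 0.5) scale, by group; black bars are medians. The 2 fatty acyl-CoA reductases, the elongase and Edg-91-like have higher medians at day 12 than at day 3, while ple has 17.2 CPM at day 3 and 16.1 CPM at day 12.

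Cuticle proteins made up 3 members. Pupal cuticle protein Edg-91-like (LOC107067613), named after an ecdysone-dependent gene of Drosophila, had 2.32, 12.6 and 44.7 CPM in control workers, 5.26, 22 and 78.2 at day 3, 11.4, 36.5 and 66 at day 12 and 0.94, 42.3 and 364 in queens. Day 12 wasps formed a narrow band, with the lowest of them near the worker median. Endocuticle structural glycoprotein SgAbd-4-like (LOC107068699) had medians of 71.2 CPM in control workers, 100.5 at day 3, 136 at day 12 and 115 in queens, and CPR17, of the chitin-binding family with the Rebers and Riddiford motif, had 2.19 CPM in control workers, 3.07 at day 3, 3.17 at day 12 and 3.82 in queens. All 3 had a larger share at day 12.

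The enzymes that handle phenylalanine and tyrosine, a theme noticed after the members were known, were represented by 4 genes. Hn (phenylalanine hydroxylase) makes tyrosine, and ple (tyrosine hydroxylase) commits tyrosine to dopamine and to cuticle pigment. Tat (tyrosine aminotransferase) and hgo (homogentisate dioxygenase) break tyrosine down. The level of hgo was 0.796, 1.82 and 3.86 CPM in control workers, 1.88, 3.82 and 11.7 at day 3, 0.944, 4.71 and 12.7 at day 12 and 0.943, 4.09 and 13.2 in queens, and 31 of 58 removal individuals were above every control worker. For Tat the values were 0.726, 1.69 and 2.86 CPM in control workers, 0.923, 2.9 and 7.9 at day 3, 1.19, 2.79 and 10.8 at day 12 and 1.13, 3.96 and 9.87 in queens, with 30 of 58 above every worker. For ple they were 6.74, 9.83 and 27.2 CPM in control workers, 8.45, 17.2 and 60.8 at day 3, 5.56, 16.1 and 38.2 at day 12 and 8.49, 16 and 38.9 in queens, and here the removal medians were slightly above that of queens at both days. At day 3 these 3 genes already had shares of 0.911, 0.619 and 1.15. The share of Hn was 0.039 at day 3 and 0.785 at day 12, and its mean difference from workers was above 0 without age in the fit and below 0 with age.

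Among the 2 cytochrome P450 members, phtm, the ecdysteroid-synthesis enzyme known in Drosophila as phantom, was low, with 0, 1.49 and 2.11 CPM in control workers, 0.636, 2.42 and 5.88 at day 3, 0.977, 1.94 and 4.99 at day 12 and 0.796, 2.81 and 7.2 in queens. It had 20 of 26 queens and 27 of 58 removal individuals above every control worker, the most queens of any member. Cytochrome P450 4C1-like (LOC107072127) had a queen to worker ratio of 10.4, but 1 control worker reached 15.6 CPM and no removal individual exceeded that wasp. Both P450 genes had a larger share at day 3 than at day 12.

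Transcription factors made up 11 members, with queen to worker ratios of 1.59 to 20.5. A pair of Hox genes was among them. The homeotic protein Sex combs reduced (LOC107067707), which in Drosophila specifies labial and anterior thoracic segments, had 0, 0.223 and 9.45 CPM in control workers, 0, 2.21 and 11.6 at day 3, 0, 3.02 and 12.9 at day 12 and 0, 4.58 and 17 in queens. Its ratio of 20.5 rests on a worker median of 0.223 CPM, since 8 of 12 control workers were under 1 CPM while 3 were above the queen median. It was above the worker median in all 18 removal nests. Dfd, the Hox gene of the mandibular and maxillary segments in Drosophila, had medians of 0.899 CPM in control workers, 2 at day 3, 2.62 at day 12 and 2.91 in queens, and hth, which encodes a cofactor of Hox proteins, had 11.4 CPM in control workers, 14.6 at day 3, 16.3 at day 12 and 21.2 in queens.

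The POU-domain factor vvl was the most abundant of the 11, at medians of 164 CPM in control workers, 203 at day 3, 217 at day 12 and 261 in queens. CCAAT/enhancer-binding protein (LOC107064609) had 20.8, 24.6 and 34.4 CPM in control workers, 22.3, 31.3 and 76 at day 3, 18.2, 35 and 56.5 at day 12 and 23.8, 39.8 and 103 in queens, and 27 of 58 removal individuals were above every control worker. Its rho with the muscle gene was 0.68, just inside the limit of the rule. The others were Ptx1, sim, Sp1, lov, Cph and silk gland factor 1-like (LOC107070212), with ratios of 1.75, 1.67, 1.94, 1.71, 2.07 and 1.91. Over the 11 factors the median share was 0.5 at day 3 and 0.675 at day 12.

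Channels and transporters were 4 members: a pair of sodium channel protein Nach-like genes (LOC107064022 and LOC107069809), the calcium channel gene cac, and Mdr49, an ABC transporter. Mdr49 had 87.5, 108 and 361 CPM in control workers, 60.3, 159.9 and 301 at day 3, 71.7, 158 and 321 at day 12 and 109.6, 196 and 418 in queens, so that 1 control worker was above all removal individuals. Other named members were catalase (Cat), with medians of 109.5 CPM in control workers, 117 at day 3, 152 at day 12 and 189.6 in queens, the basement membrane protein perlecan (trol), with 351 CPM in control workers, 415 at day 3, 446 at day 12 and 555 in queens, and sta, which encodes a ribosomal protein, with 398 CPM in control workers, 495 at day 3, 505 at day 12 and 630.2 in queens. The opsin gene Rh5 varied widely, from 0 to 913 CPM at day 3, and its median there was below that of workers. Of the 70 members without a name, LOC107069709 was the most abundant, at medians of 554 CPM in control workers, 526 at day 3, 1479 at day 12 and 886 in queens, followed by LOC107069023, at 162 CPM in control workers, 292 at day 3, 599 at day 12 and 602 in queens. LOC107073350 had the highest ratio of these, 9.09, from a worker median of 0.281 CPM.

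Near the limits of the rule the values were continuous. Just inside the share were LOC107074051 (0.403), LOC107063680 (0.409) and cac (0.416), and just outside were LOC107068551 (0.397), bs (0.385) and Su(Tpl) (0.381). Just inside the muscle limit were Gbs-76A (0.69), CCAAT/enhancer-binding protein (0.68) and LOC107072193 (0.67), and just outside LOC107069602 (0.71), LOC107067820 (0.73) and LOC107066383 (0.73). For the queen minus worker difference, the inside edge was LOC107065052 at 0.59 and the outside edge LOC107065556 at 0.58 on the log2 scale. At 2 CPM in queens, LOC107063705 was inside with 2.06 CPM and LOC107073856 outside with 1.99 CPM.

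The rule pooled both days and did not set day 12 against day 3, but it was not free of the day. Day 12 supplied 34 of the 58 wasps and so weighs more in the pooled median, which favours genes higher at day 12. In 42 members the share was under 0.4 at day 3. Part of the larger shares at day 12, and of the excess over all genes in the day tests below, is therefore given by the choice. How large that part is was not tested. Of the 125 members 92 had a larger share at day 12, with a median of 0.718 against 0.484 at day 3, and 33 had a larger share at day 3. The share was 0.4 or more in 83 members at day 3, in 117 at day 12 and in 75 at both. In 17 members it was under 0.2 at day 3 and over 0.6 at day 12.

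**Figure D3:**
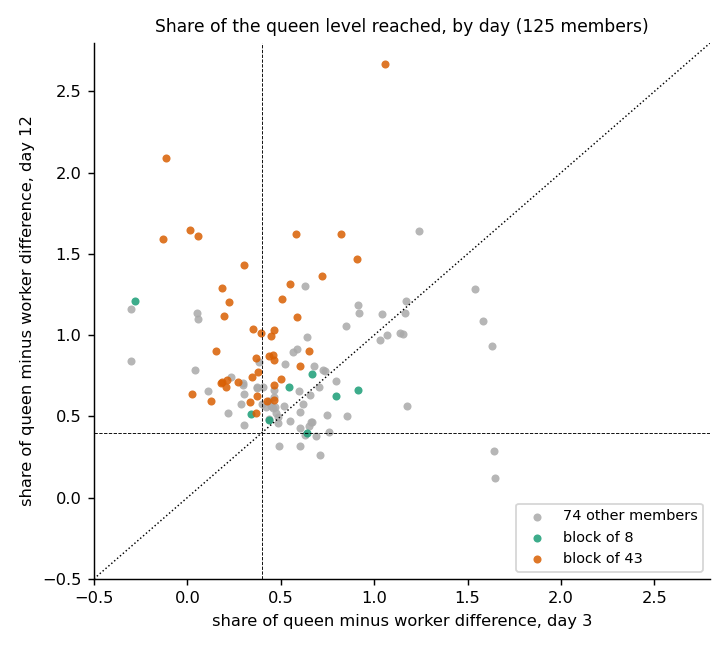
Share of the queen minus worker difference reached at day 3 (horizontal) and at day 12 (vertical), 1 point per member; dashed lines mark 0.4 and the dotted line equality. Of the 125 members 92 lie above the dotted line, among them all 43 of the largest co-varying block, which was grouped over both days pooled.

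Tested by edgeR's quasi-likelihood method with Benjamini-Hochberg adjustment over all 10794 genes, 3 of 125 members (2.4%) changed between the days, against 0.287% of all genes. Of these, 2 were higher at day 12, against 0.111% of all genes, and 1 was lower, against 0.176%. LOC107065143 rose by 0.89 ± 0.19 on the log2 scale (SE, adjusted p = 0.0101), from levels of 3, 13.3 and 25.8 CPM at day 3 (lowest, median, highest) to 8.95, 22.6 and 84.1 CPM at day 12. The ranges overlapped between 8.95 and 25.8 CPM, and the day 12 median was near that of queens (21.2 CPM). Fatty acyl-CoA reductase 1-like rose by 2.04 ± 0.48 (adjusted p = 0.0311), the step seen in its medians. LOC107069763 fell by 1.67 ± 0.40 (adjusted p = 0.0311), but its level was 1.87, 2.59 and 4.95 CPM in control workers, 1.87, 3.4 and 353 at day 3, 2.3, 3.65 and 25.4 at day 12 and 1.13, 4.72 and 22.1 in queens, and the fall came from 1 day 3 wasp at 353 CPM, since the next day 3 wasp had 7.77. Without that wasp (day 3 replicate 8) its change was 0.67 in the other direction (adjusted p = 0.198). In that setting 49 of all genes were called, against 31 in the main fit. Among them were 7 members, all of them higher at day 12. Besides LOC107065143 and fatty acyl-CoA reductase 1-like these were the elongase at 1.28 (adjusted p = 0.0446), retinaldehyde-binding protein 1-like at 1.25 (adjusted p = 0.0305), LOC107063925 at 1.14 (adjusted p = 0.026), LOC107071772 at 0.98 (adjusted p = 0.0439) and LOC107074051 at 0.90 (adjusted p = 0.026). Without the 6 wasps high in head gland markers edgeR called no member and 15 of all genes, with LOC107065143 at 0.73 (adjusted p = 0.105) and fatty acyl-CoA reductase 1-like at 1.61 (adjusted p = 0.223), and 41 members (32.8%, against 9.53% of all genes) were at an unadjusted p under 0.05, 36 of them higher at day 12. Both settings were chosen after seeing the data.

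Most other members had a higher estimate at day 12 without passing the test. The median log2 difference of day 12 minus day 3 was 0.18 over the members, 0.07 over the 188 queen-high genes that did not reach the share and 0.00 over all genes, and it was above 0 in 68.0% of the members, 62.8% of those 188 genes and 51.6% of all genes. At an unadjusted p under 0.05 edgeR had 32 members higher and 6 lower (30.4% of the members, against 10.4% of all genes). The 8 lipid genes had estimates above 0 and 7 of them were at an unadjusted p under 0.05, but 7 of the 8 also varied together over the wasps, so that they do not count as separate evidence. Among them were retinaldehyde-binding protein 1-like at 1.19 ± 0.30 (adjusted p = 0.0514) and fatty-acid amide hydrolase 2-B-like at 1.00 ± 0.32 (adjusted p = 0.201). Hn was at 1.07 ± 0.29 (adjusted p = 0.0898), while ple was at -0.21 ± 0.17 (adjusted p = 0.702).

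The wasps came from 8 nests at day 3 and 10 at day 12, so that wasps of 1 nest are not independent in this test. With nest as a random effect limma voom called none of the members and none of all genes, although 29 members (23.2%, against 6.41% of all genes) were at an unadjusted p under 0.05, 27 of them higher at day 12. The changes were 0.84 for LOC107065143 (adjusted p = 0.364) and 1.54 for fatty acyl-CoA reductase 1-like (adjusted p = 0.708). With age as a covariate edgeR called 2 members and 13 of all genes, and DESeq2 called 5 members and 31 of all genes.

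Pairs of members were also compared over the 58 removal individuals. The median Spearman's rho between pairs of members was 0.10, against 0.05 among the 188 queen-high genes under the share and -0.003 among all genes, and 8.32% of member pairs were above 0.5, against 2.35% and 1.28%. These values describe 1 set of libraries, and depth, day and nest are common to all pairs. Grouped by rho, 43 members formed 1 block with a median rho of 0.54, and a second block of 8 had 0.64. The blocks were drawn from these same values, with both days pooled, and carry no test. Within each day the median rho between pairs of members was 0.13 at day 3 and 0.09 at day 12. Outside both blocks, LOC107066223 and piggyBac transposable element-derived protein 4-like (LOC107073753) had a rho of 0.94, and whether these genes share reads was not tested.

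The block of 43 held both soluble chemosensory proteins, 7 of the 8 lipid genes, 2 of the 3 cuticle proteins, and Dfd, vvl, CCAAT/enhancer-binding protein, trol, Cat and apyrase-like (LOC107074632). Its shares were low at day 3 and high at day 12, with medians of 0.371 and 0.901, and all 43 had the larger share at day 12. The block was formed over both days pooled, where a day difference common to its genes adds to their rho. This day pattern can therefore come in part from the grouping, and how large that part is was not tested. The other 82 members had medians of 0.601 and 0.660. The block's median rho with the muscle gene was 0.35. The block of 8 held Rh5, Cph, nord, lov, sim and 3 unnamed genes, with median shares of 0.592 and 0.646. None of the 4 phenylalanine and tyrosine enzymes and neither P450 gene was in a block.

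**Figure D4:**
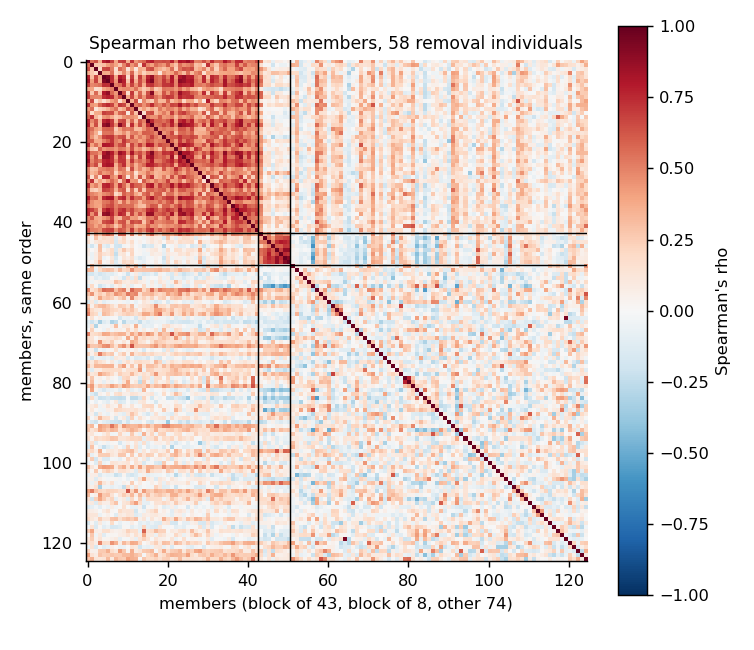
Spearman's rho between every pair of the 125 members over the 58 queen removal individuals, ordered by block; black lines separate the block of 43, the block of 8 and the other 74 members. The block of 43 has a median rho of 0.54, the block of 8 of 0.64.

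Age was tested within the removal individuals, with day as a covariate, and is given as the log2 change per SD of age. edgeR called 12 of 125 members (9.6%), against 8.23% of all genes, so that members were called about as often as any gene. By direction 9 rose, against 3.18% of all genes, and 3 fell, against 5.05%. Those that rose with age were sta, Edg-91-like, fas apoptotic inhibitory molecule 1 (LOC107066711), LOC107063680, LOC107066938, LOC107069763, LOC107070011, LOC107073122 and LOC107073430. The smallest p was that of sta, which rose by 0.18 ± 0.03 (SE, adjusted p = 4.03e-05), over a range in the removal individuals of 325 to 771 CPM with a median of 498. Its slope lay between 0.17 and 0.19 in every alternative run. LOC107073430 rose by 0.36 ± 0.07 (adjusted p = 0.000485). The slope of LOC107069763, 0.99 ± 0.19, fell to 0.03 without day 3 replicate 8 (adjusted p = 0.922). With nest as a random effect limma voom called 8 of the 12, and the calls of Edg-91-like (0.26, adjusted p = 0.0799), LOC107069763 (adjusted p = 0.334), LOC107066075 (adjusted p = 0.2) and ple were lost. Without the 6 wasps high in head gland markers 7 of the 12 were called.

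Those that fell with age were LOC107066995, LOC107066075 and ple. LOC107066995 had a slope of -0.47 ± 0.11 (adjusted p = 0.00260) and ple one of -0.26 ± 0.08 (adjusted p = 0.0361). The call of ple was lost with the muscle markers as a covariate, with nest as a random effect, with the ovarian index as a covariate and without 1 wasp whose name and nest record differ, at adjusted p between 0.0656 and 0.157, and without the 6 wasps high in head gland markers (adjusted p = 0.0601). In the 12 control workers edgeR called no member with age, against 0.649% of all genes, and 20 members (16.0%, against 14.9% of all genes) were at an unadjusted p under 0.05, while DESeq2 called 6 members and 404 of all genes. The unadjusted share of members was near that of all genes. The age slopes of workers and removal individuals were also compared directly, and edgeR called no member (0.00926% of all genes), with 10 at an unadjusted p under 0.05 (8.0%, against 6.02% of all genes).

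The ovarian index, a measure of ovary development taken by the study for each wasp, was tested in the same way. edgeR called 2 of 125 members (1.6%), against 0.269% of all genes, and both rose with it, against 0.185% of all genes in that direction. They were the elongase, by 0.85 ± 0.12 per SD (SE, adjusted p = 6.08e-06), and the CG5065 fatty acyl-CoA reductase, by 0.72 ± 0.13 (adjusted p = 0.000750). Of the 27 hydrocarbon synthesis genes 4 rose with the ovarian index and none fell, the other two being bond and Cyp4g15, which the rule had barred. The slope of bond was 1.03 ± 0.19 (adjusted p = 0.000706) and that of Cyp4g15 was 1.17 ± 0.27 (adjusted p = 0.0234). In 26 members (20.8%, against 9.69% of all genes) the unadjusted p was under 0.05, 21 of them upward. Without day 3 replicate 8 there were 18 such members (14.4%, against 10.5% of all genes), 11 of them upward. Without this wasp and day 12 replicate 27 there were 14 (11.2%, against 10.2% of all genes), 7 upward and 7 downward. The next smallest p-values were those of CPR17, at 0.41 ± 0.11 (adjusted p = 0.0701), and LOC107069763, at 0.80 ± 0.21 (adjusted p = 0.0743). Age and the ovarian index were related over the 58 wasps (Spearman's rho 0.43), and with age as a covariate both calls held, at adjusted p of 0.000123 for the elongase and 0.0235 for the reductase.

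Dominance was measured by the study as an Elo rating, which rises when a wasp wins contests within its nest. With the rating, edgeR called 5 of 125 members (4.0%), all upward, against 0.176% of all genes in either direction and 0.167% upward. They were LOC107069763, by 1.14 ± 0.12 per SD (adjusted p = 5.83e-09), the elongase, by 0.74 ± 0.10 (adjusted p = 3.51e-06), the CG5065 reductase, by 0.67 ± 0.11 (adjusted p = 6.08e-05), LOC107063925, by 0.45 ± 0.09 (adjusted p = 0.00818), and CPR17, by 0.42 ± 0.09 (adjusted p = 0.00818). The hydrocarbon synthesis list had 3 of 27 genes called, all upward, bond being the one outside the set. LOC107063925, which has no name, had 0, 8.15 and 31.3 CPM in control workers, 2.48, 16.2 and 129.9 at day 3, 6.57, 29.3 and 70.5 at day 12 and 1.03, 25.9 and 109.6 in queens, and it was above the worker median in all 18 nests.

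These calls rested on 2 wasps with high ratings, day 3 replicate 8 and day 12 replicate 27. The elongase was at 167 and 229 CPM in them, against at most 106 CPM in any other removal individual, and the reductase at 367 and 282 CPM. CPR17 was at 20.6 and 18.2 CPM, and LOC107069763 at 353 and 25.4 CPM. LOC107063925 was at 129.9 and 67.7 CPM, and here day 12 replicate 27 did not stand apart. Day 12 replicates 25 (70.5 CPM), 19 (70.4 CPM) and 21 (67.8 CPM) were above it. Another wasp with a rating as high as those of the 2 wasps, day 3 replicate 4, had 17.6 CPM of the elongase and 46 CPM of the reductase. Without day 3 replicate 8 the elongase alone was called with the rating (0.57, adjusted p = 0.00801). Without the 6 wasps high in head gland markers, day 3 replicate 8 among them, 2 members were called, LOC107069763 (0.47, adjusted p = 0.00284) and the elongase (0.58, adjusted p = 0.021). With nest as a random effect the call of CPR17 was lost (0.38, adjusted p = 0.106). Without both wasps no member was called (slope of the elongase 0.41, adjusted p = 0.492) and no gene in all. At an unadjusted p under 0.05 there were then 15 members (12.0%, against 4.37% of all genes), 8 upward and 7 downward. For the ovarian index, the elongase remained without both wasps (0.57, adjusted p = 0.00142) and the reductase did not (0.42, adjusted p = 0.0723). With ratings replaced by their ranks, LOC107069763, the elongase and the reductase were called (0.0649% of all genes).

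**Figure D5:**
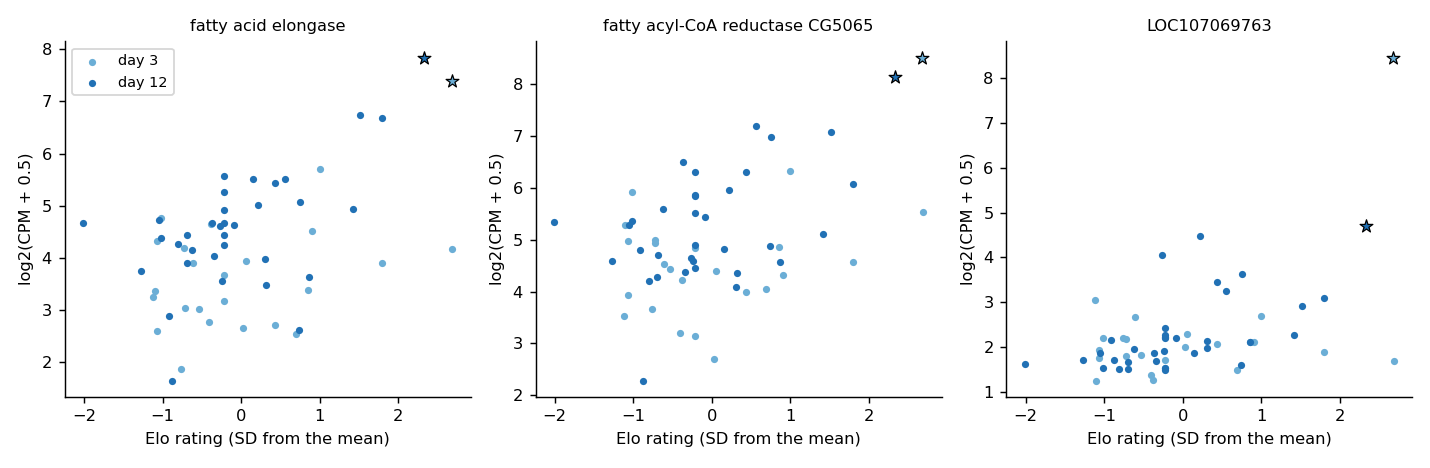
Level of the elongase, the CG5065 fatty acyl-CoA reductase and LOC107069763 on the log2(CPM + 0.5) scale against the Elo rating, in SD from the mean, for the 58 queen removal individuals; stars mark day 3 replicate 8 and day 12 replicate 27. The stars hold the highest level in each panel.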

How the data were processed

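Brain RNA of single wasps was sequenced, and the authors deposited 1 table of read counts per gene for 96 libraries, made per the labels and the study's methods with SortMeRNA, Trimmomatic, STAR and StringTie2 on the P. dominula annotation. The submitters' notes give Trimmomatic 0.36 and STAR 2.7, and the study's reporting form names a later Trimmomatic. The deposited counts were used as whole numbers. Of 11335 entries, 194 repeats of a gene ID were summed and the entry with no gene name (0.0216% to 0.0706% of counts) was left out, which gave 11140 genes. Kept were the 10794 genes whose summed count passed 20 in 1 group or more. Symbols were taken from RefSeq by gene ID (10144 genes matched, 4064 with a symbol) and product names from the study's annotation (4395 genes).

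CPM were scaled by TMM in edgeR 4.0.16 (R 4.3.3). Tests were run with edgeR (glmQLFTest), and p-values were adjusted by Benjamini-Hochberg over all 10794 genes, at a threshold of 0.05: day 12 against day 3 in 1 fit of the 4 groups, and slopes per SD of age, ovarian index and Elo rating within the 58 removal individuals, adjusted for day (in the 12 control workers age only). Ovarian index and rating of each wasp were read from the study's source data as covariates. DESeq2 1.42.0, limma 3.58.1 with nest as a random effect, other normalizations and filters, other limits of the rule, and wasps left out were run as alternatives, and the fits were checked on simulated counts. Samples were grouped by the condition in the labels. Nothing in the labels gives more than 1 library per wasp. The highest correlation between libraries was 0.98, which was not set against sampling noise.

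The members, the gene lists and the tests were chosen with earlier results of these data known. Named genes were, by rule, up to 30 named members by queen to worker ratio, up to 10 unnamed ones, the smallest p-values of each test and the genes at each limit, and further members are named where a role or a block is described. Levels of different genes are not corrected for length. Members of multigene families, such as the reductases and the ejaculatory bulb-specific proteins, may share reads with close copies. Genome sequence and promoters were not analysed here.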

Additional observations from a re-analysis of the deposited data

How the results depend on the processing

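The number of members was between 85 and 148 under all but 1 of the limits, scalings, filters and left-out wasps tried, and was 196 with no muscle filter. Counts alone hide turnover: with means of log2 values in place of medians 117 genes passed, of which 79 were members, and without control worker replicate 1, whose mean over the members was the lowest of the workers, 128 passed, of which 106 were members. With only the 14 queens of nests without removal individuals 144 passed, of which 95 were members. On means of log2 values the share passed in 105 members, and in 94 at equal age.

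For day 12 against day 3 the count of 3 members became 5 with DESeq2, 0 with nest as a random effect in limma voom, 7 without removal day 3 replicate 8 and 0 without the 6 wasps high in head gland markers. Of all genes 31, 0, 49 and 15 were called in these settings, against 31 in the main fit. With the replicate number as a block 1 member and 9 of all genes were called. The 24 numbers that both days share do not pair the wasps, since the median correlation of same-numbered wasps was 0.0389 and 7 were over 0.1. LOC107069763 changed direction: it was 0.67 with DESeq2, 0.0857 with nest as a random effect and 0.0131 with the replicate block, and from -1.82 to 0.67 when single wasps were left out, the highest being without day 3 replicate 8, 0.51 without both wasps with high ratings and 0.539 without the 6 wasps. For age among removal individuals the count of 12 became 7 with the ovarian index as a covariate, and among control workers the count of 0 became 6 with DESeq2. For the ovarian index the count of 2 became 4 with DESeq2 and 1 without both wasps. For the dominance rating the count of 5 became 1 without day 3 replicate 8, 0 without both wasps, 2 without the 6 wasps and 3 on ranks. The cause of the other shifts was not tested. Settings that left out single wasps, ranks, equal age, the 6 wasps, the 14 queens and control worker replicate 1 were chosen after seeing the data.

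Of the other alternatives for these counts 75 stayed within 1.5 times the count given. The main limits are the 12 control workers, whose medians set every share, the shared nests, and covariates with few wasps at their upper end. A low count is not shown to be an absence at this depth: 61 members had a queen median under 10 CPM.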

Other observations

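Another gene of the ejaculatory bulb-specific protein 3 family, LOC107068501, ran the other way in queens. Its medians were 1.6 CPM in queens, 18.2 CPM in control workers and 38.4 CPM in queen removal individuals, so that it was not queen-high and was no member. Between day 3 and day 12 its estimated difference was 1.37 ± 0.58 on the log2 scale (SE, edgeR adjusted p = 0.361), and its levels in removal individuals lay away from those of queens, while its relatives LOC107068616 and LOC107068500 lay toward them. Of the 33 members with a larger share at day 3, 3 are given here. LOC107073534 had a share of 1.65 at day 3 and 0.119 at day 12, LOC107069748 one of 1.64 at day 3 and 0.289 at day 12, and pip, a sulfotransferase gene of Drosophila, one of 0.712 at day 3 and 0.264 at day 12. Their differences between days did not pass the test, at edgeR changes of -1.09 ± 0.41 (adjusted p = 0.274), -0.63 ± 0.22 (adjusted p = 0.237) and -0.30 ± 0.18 (adjusted p = 0.564).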
